A study of Mus musculus with 9 samples.

Results

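The genes described here are 7 cytokine genes of the IL-6, TNF, IL-1 and IL-10 groups: Il6, Lif, Tnf, Il1a, Il1b, Il1rn and Il10. They were chosen by name, as the transcript clusters whose platform symbol is one of these genes, and each of the 7 had 1 cluster, among 19938 genes with a cluster that carried a single symbol. RNA had been measured on 9 Affymetrix arrays of conventional dendritic cells (cDC) sorted from spleens of mice of strain 129SvEv/Tac, to find genes controlled by BATF proteins. There were 2 arrays each of activated and of resting cDC2 from Batf-/- Batf3-/- mice (double knockout, DKO), 2 of activated WT cDC2, 1 of resting WT cDC1 and 2 of resting WT cDC2. To activate them, cells had been kept with 100 ng/ml of IFN-gamma for 1 h before E. coli LPS was added at 1 µg/ml for another 3 h. The labels give no age or sex, do not say whether mice were pooled or whether replicates were different animals, and do not say how the resting cells were held. The p-values therefore rest on a spread between arrays that may be technical only. In such bulk RNA, fewer cells of a type and less RNA per cell cannot be told apart. Activated and resting arrays may differ in time in culture as well as in treatment, and these cannot be told apart either. No array had IFN-gamma or LPS alone, so the part of each is not known.

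These cytokines are the early secreted signals of the response to microbes. LPS binds TLR4, which acts through the adaptors MyD88 and TRIF to free NF-kappaB and to start MAP kinases that raise AP-1, and IFN-gamma primes the response, in part through IRF1. TNF and IL-1 then act on neighbouring cells through receptors that use NF-kappaB again, IL-6 and LIF act through receptors that share the chain gp130, the IL-1 receptor antagonist occupies the IL-1 receptor without signalling, and IL-10 damps the response of the cells that made the others. BATF and BATF3 are AP-1 proteins that pair with JUN proteins and, with IRF4 or IRF8, bind AP-1 sites beside an IRF site.

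Promoter sequences are shown for 5 of the genes: Il6 and Tnf, which carried the clearest response, Il1a and Il1b, which lie side by side, and Lif, whose genotype difference had opposite signs at rest and after activation. RefSeq promoters of assembly GRCm38.p6 were matched for 6 of the 7 genes, and none was matched for Il10. The 250 bases before the start are given, read on the strand of the gene. Il6 is at chr5:30012864-30013113 on the plus strand, Tnf at chr17:35202008-35202257 on the minus strand, Il1a at chr2:129309973-129310222 and Il1b at chr2:129371140-129371389 on the minus strand, and Lif at chr11:4257318-4257567 on the plus strand. Capitals mark the letters TATAAA (bound by the protein TBP), TGANTCA (AP-1), an NF-kappaB decamer (GGGATTTTCC, or the same with another base after GGGA) and TTGCNNAA (C/EBP), found on either strand.
Il6: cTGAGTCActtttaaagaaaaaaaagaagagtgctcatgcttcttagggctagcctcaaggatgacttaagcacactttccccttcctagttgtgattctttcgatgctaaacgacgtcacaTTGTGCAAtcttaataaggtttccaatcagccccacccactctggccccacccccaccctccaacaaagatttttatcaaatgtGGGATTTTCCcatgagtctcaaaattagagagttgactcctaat
Tnf: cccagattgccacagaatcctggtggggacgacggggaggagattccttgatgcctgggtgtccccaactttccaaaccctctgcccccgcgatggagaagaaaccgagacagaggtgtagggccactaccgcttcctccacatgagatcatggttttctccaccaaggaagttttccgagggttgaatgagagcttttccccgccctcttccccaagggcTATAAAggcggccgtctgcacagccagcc
Il1a: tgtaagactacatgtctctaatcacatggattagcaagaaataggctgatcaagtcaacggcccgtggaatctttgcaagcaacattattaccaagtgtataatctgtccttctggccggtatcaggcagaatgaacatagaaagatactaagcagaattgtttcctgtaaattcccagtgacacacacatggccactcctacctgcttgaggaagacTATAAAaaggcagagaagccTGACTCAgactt
Il1b: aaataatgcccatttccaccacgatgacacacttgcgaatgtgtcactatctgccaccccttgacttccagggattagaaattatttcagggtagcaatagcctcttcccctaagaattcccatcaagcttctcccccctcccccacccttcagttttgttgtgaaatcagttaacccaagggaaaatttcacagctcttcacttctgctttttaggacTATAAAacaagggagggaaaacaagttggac
Lif: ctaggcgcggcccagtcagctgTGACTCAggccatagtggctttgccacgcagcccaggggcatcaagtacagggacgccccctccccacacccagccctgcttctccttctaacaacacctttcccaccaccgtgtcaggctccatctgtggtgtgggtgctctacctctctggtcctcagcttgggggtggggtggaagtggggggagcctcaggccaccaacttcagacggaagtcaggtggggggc

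The search covered 250 bases before to 50 bases after each start, and a match is a description of letters only. In the Il6 window, TGAGTCA stood at -249 to -243 with GAAA within 10 bases of it, TTGTGCAA (TTGCNNAA read on the other strand) at -128 to -121 and GGGATTTTCC at -44 to -35. Of 32851 promoters of 27025 genes, 7.81% held TGANTCA, 1.88% held it within 10 bases of GAAA, 10.8% held TTGCNNAA and 0.411% held the NF-kappaB decamer. TATAAA, held by 13.6% of all promoters, stood at -29 to -24 before Tnf, at -32 to -27 before Il1a and at -31 to -26 before Il1b. Il1a also held TGACTCA at -12 to -6 and Lif at -228 to -222. Il1rn has 3 starts in RefSeq: TGAGTCA stood at -141 to -135 from the first, and TATAAA, read on the other strand, at 15 to 20 past the third. A looser NF-kappaB decamer (GGG first, CC last and any bases between), which overlaps the stricter one, was in 50.8% of all promoters, among them those of Il6, Tnf, Il1rn and Lif.

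The labels were checked before the cytokines were read. Batf, given as log2 of the deposited array intensity like all levels here, was 5.44 and 5.31 in activated and 5.40 and 5.44 in resting DKO cDC2 (replicates 1 and 2), against 7.26 and 9.07 in activated and 6.74 and 7.37 in resting WT cDC2. Batf3 lay between 6.43 and 7.17 on the DKO arrays and between 7.58 and 9.92 on the WT cDC2 arrays, so that both genes were lower on every DKO array. The labels do not say which exons are deleted. The summed intensity of 9 cDC2 markers was 384.9 on the cDC1 array, against 2084 to 3112 on the cDC2 arrays, although 4 of the 9 (Clec4a4, Clec10a, Cd209a and Clec4a2) stayed under the brightness limit on every cDC2 array. Most of the sum on cDC2 arrays came from Sirpa (9.05 to 10.30, against 7.05 in cDC1) and Irf4 (9.37 to 11.02, against 5.13 in cDC1). Irf4 was higher on the activated than on the resting cDC2 arrays. The 8 cDC1 markers summed to 4814 on the cDC1 array, against 989 to 1136 on DKO and 1278 to 1603 on WT cDC2 arrays, with Xcr1, Clec9a and Itgae under the limit on every cDC2 array. The gap between the genotypes in this sum followed Cadm1, at 7.69 to 8.51 on DKO and 8.52 to 9.84 on WT cDC2 arrays. Wdfy4, the other bright marker, overlapped, at 8.95 to 9.36 on DKO and 8.74 to 9.47 on WT cDC2 arrays. Resting WT cDC2 replicate 2 stood apart: 14 interferon-stimulated genes summed to 11265 and 13158 on the resting DKO arrays, against 20941 on resting WT replicate 1 and 39502 on resting WT replicate 2. For the cytokine genes, responses and differences that use this array are also given without it, and for the other lists the calls kept without it are counted. Fits with the replicate number as a block were not repeated without it, and gaps between neighbours in the order of levels are given with it alone.

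**Figure D1:**
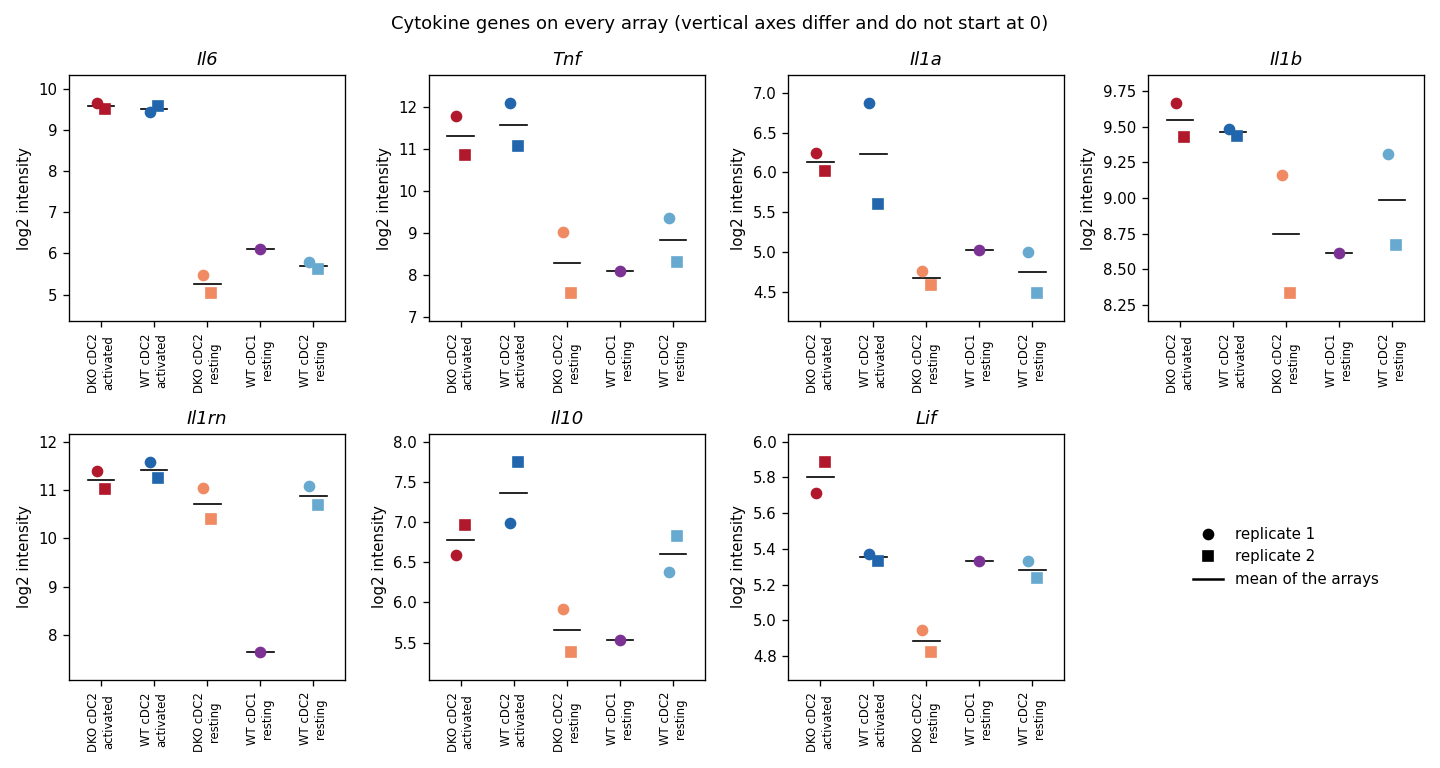
Log2 intensity of each cytokine gene on every array, with 1 panel a gene. Circles are replicate 1, squares replicate 2 and bars the mean of a group's arrays, and the vertical axes differ between panels. Il6 lay at 9.44 to 9.65 on the 4 activated arrays and at 5.04 to 6.11 on the 5 resting arrays, and Il1rn was lowest on the cDC1 array.

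Il6 and Tnf were higher in activated than in resting cDC2 of both genotypes. A response here is the difference between activated and resting arrays. These genes were the members past the threshold (adjusted p below 0.05 over all genes tested) in both responses. Across the 10728 genes tested, 5.82% were called higher and 7.9% lower in the DKO response, and 3.97% higher and 6.57% lower in the WT response. Genes entered the test if the mean of a group was above a log2 intensity of 5.94, the median of all values, and Lif was under it in every group. Il1a passed through the activated groups alone, so the filter fixed the direction of its response, though not its size. All 7 genes were higher on the activated array in each of the 4 same-numbered pairs, as were 22.1% of genes tested. Higher arrays without overlap were common, at 21% of genes tested in DKO and 19.9% in WT cDC2.

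Il6, the pleiotropic cytokine of the acute phase and of B and T cell help, was at 9.65 and 9.52 in activated DKO cDC2, against 5.47 and 5.04 in resting DKO cDC2. In WT cDC2 it was at 9.44 and 9.59 after activation, against 5.78 and 5.63 at rest. All activated arrays lay far above all resting ones, and the activated arrays of the genotypes overlapped. The response was 20.1-fold in DKO cDC2 (log2 difference 4.33 ± 0.16 SE, adjusted p = 0.00024) and 14.1-fold in WT cDC2 (3.81 ± 0.16, adjusted p = 0.000518). By size it was the 10th highest response of the genes tested in DKO and the 8th highest in WT cDC2. Without resting WT replicate 2, the WT response was 3.74 with an adjusted p of 0.00351.

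Tnf, the founding ligand of its family and an early trigger of inflammation, was at 11.78 and 10.84 in activated DKO cDC2, against 9.01 and 7.56 in resting DKO cDC2. In WT cDC2 it was at 12.08 and 11.06 after activation, against 9.36 and 8.31 at rest. Replicate 1 was the higher array in every group, by 0.94 to 1.45, yet no resting array reached an activated one. The response was 8.10-fold in DKO cDC2 (3.02 ± 0.64, adjusted p = 0.0306) and 6.66-fold in WT cDC2 (2.74 ± 0.64, adjusted p = 0.0469). Between same-numbered arrays it was 2.76 and 3.28 in DKO and 2.72 and 2.75 in WT cDC2. The WT call was lost when any of the 8 cDC2 arrays was left out (adjusted p 0.0569 to 0.162), and without resting WT replicate 2 the response was 2.21 with an adjusted p of 0.142. The DKO call was lost without activated replicate 1 (2.55, adjusted p = 0.156), activated replicate 2 (3.49, adjusted p = 0.0699) or resting replicate 2 (2.29, adjusted p = 0.139). With the replicate number as a block, the adjusted p was 0.000112 in DKO and 0.000242 in WT cDC2.

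The ligands of the IL-1 receptor moved less. Il1a, which encodes the form that is active without cleavage, was at 6.24 and 6.03 in activated DKO cDC2, against 4.76 and 4.58 in resting DKO cDC2. In WT cDC2 it was at 6.87 and 5.60 after activation, against 5.0 and 4.48 at rest. No activated and resting arrays overlapped, and the activated WT arrays were the widest apart. The difference was 1.47 ± 0.40 in DKO (adjusted p = 0.059) and 1.5 ± 0.40 in WT cDC2 (adjusted p = 0.0645). With the replicate block both passed, with adjusted p of 0.00616 in DKO and 0.00692 in WT cDC2. In that fit 13% of genes tested were called higher and 25% lower in the DKO response, and 11.4% higher and 23.9% lower in the WT response. The DKO difference also passed without either activated WT array (adjusted p = 0.0200), and the WT difference without activated WT replicate 2 (2.13, adjusted p = 0.0495). The WT difference was 1.24 without resting WT replicate 2 (adjusted p = 0.189).

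Il1b, which encodes the form that caspase-1 must cleave, was already well above the brightness limit at rest. It was at 9.66 and 9.43 in activated DKO cDC2, against 9.16 and 8.33 in resting DKO cDC2, and at 9.48 and 9.44 in activated WT cDC2, against 9.31 and 8.67 in resting WT cDC2. The activated arrays lay just above the resting ones, and replicate 2 was the lower array in all 4 groups. The difference was 0.80 ± 0.31 in DKO (adjusted p = 0.139) and 0.47 ± 0.31 in WT cDC2 (adjusted p = 0.357). With the replicate block the DKO difference passed (adjusted p = 0.0175) and the WT difference did not (adjusted p = 0.0936). Leaving out resting WT replicate 2 brought the WT difference of Il1b to 0.15 (adjusted p = 0.831).

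Il1rn, the receptor antagonist, was at 11.40 and 11.01 in activated DKO cDC2, against 11.03 and 10.39 in resting DKO cDC2. In WT cDC2 it was at 11.58 and 11.25 after activation, against 11.07 and 10.70 at rest. The DKO arrays of the 2 states overlapped and the WT arrays did not. The difference was 0.49 ± 0.27 in DKO (adjusted p = 0.26) and 0.53 ± 0.27 in WT cDC2 (adjusted p = 0.238), and with the replicate block it passed in both, with adjusted p of 0.0111 in DKO and 0.00995 in WT cDC2. The WT difference was 0.34 without resting WT replicate 2 (adjusted p = 0.58).

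Il10, the cytokine that restrains antigen-presenting cells, was at 6.60 and 6.97 in activated DKO cDC2, against 5.92 and 5.38 in resting DKO cDC2. In WT cDC2 it was at 6.99 and 7.75 after activation, against 6.37 and 6.83 at rest. Activated arrays were the higher ones in each genotype, without overlap. The difference was 1.13 ± 0.32 in DKO (adjusted p = 0.0646, or 0.0204 with the replicate block) and 0.77 ± 0.32 in WT cDC2 (adjusted p = 0.164, or 0.0715 with the block). Resting WT replicate 2 left out, the WT difference was 1.00 (adjusted p = 0.18). Unlike the IL-1 genes and Tnf, Il10 was higher on replicate 2 in 3 of the 4 groups.

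Lif, a relative of IL-6 that signals through gp130 and the LIF receptor, was tested in a fit of all 19938 genes, since it did not reach the brightness limit. It was at 5.71 and 5.89 in activated DKO cDC2, against 4.94 and 4.82 in resting DKO cDC2, and at 5.37 and 5.33 in activated WT cDC2, against 5.33 and 5.24 in resting WT cDC2. The DKO arrays of the 2 states lay apart, whereas the WT arrays touched. The difference was 0.92 ± 0.09 in DKO (adjusted p = 0.00669) and 0.07 ± 0.09 in WT cDC2 (adjusted p = 0.728). In that fit 2.66% of genes were called higher in the DKO response and 1.74% in the WT response. The DKO call was lost without resting DKO replicate 2 (0.86, adjusted p = 0.0636), and the WT difference was 0.02 without resting WT replicate 2. All values of Lif were below the median intensity of the table. The very same value, 5.32991, stood on activated WT replicate 2, resting WT replicate 1 and the cDC1 array, and the reason was not tested.

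**Figure D2:**
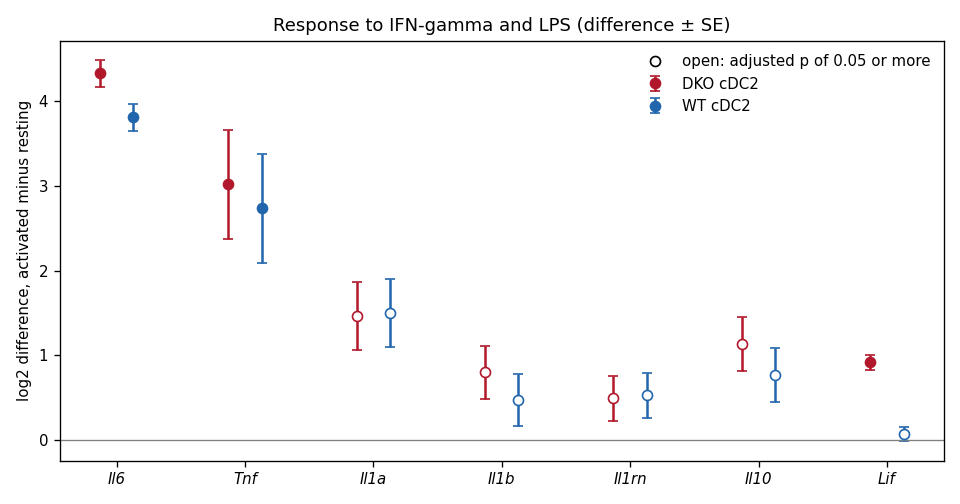
Log2 difference between activated and resting cDC2 for each cytokine gene, DKO and WT side by side, with the SE of the fit as bars. Filled points passed the threshold (Il6 and Tnf in both genotypes, Lif in DKO), and the error of Tnf, ± 0.64, was the widest.

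Whether the loss of BATF and BATF3 changed these responses was tested as the DKO response minus the WT response. No member passed: the difference between the responses was 0.52 ± 0.23 for Il6, 0.28 ± 0.90 for Tnf, -0.03 ± 0.57 for Il1a, 0.33 ± 0.44 for Il1b, -0.03 ± 0.37 for Il1rn and 0.36 ± 0.45 for Il10. For Lif it was 0.85 ± 0.12, with an adjusted p of 1 and an unadjusted p of 0.00043. Resting cDC2 of both genotypes in Il6, and resting DKO cDC2 in Il10, were under the brightness limit. The same differences without resting WT replicate 2 were 0.59 for Il6, 0.81 for Tnf, 0.23 for Il1a, 0.64 for Il1b, 0.15 for Il1rn, 0.13 for Il10 and 0.89 for Lif, so that Il1a and Il1rn changed sign. Of all genes tested, limma called 0 (0%) in this comparison, with or without the replicate block. An unadjusted p below 0.05 was found for 121 genes without the block and 368 with it. Both counts are below a share of 0.05 of the 10728 genes, which evenly spread p-values would give.

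Set directly against WT, the DKO arrays were lower in Il10 in both states. In activated cDC2 the arrays of the genotypes did not overlap, and the DKO minus WT difference of Il10 was -0.40 on replicate 1 and -0.78 on replicate 2. In resting cDC2 it was -0.45 and -1.44 on the same replicates, again without overlap. The DKO minus WT difference was -0.59 ± 0.32 in activated cells (1.51-fold lower, adjusted p = 0.932) and -0.95 ± 0.32 in resting cells (1.93-fold lower, adjusted p = 0.657), and -0.77 ± 0.23 over both states (1.70-fold lower, adjusted p = 0.286, or 0.0753 with the replicate block). None of these passed the threshold, and resting DKO cDC2, at a mean of 5.65, was under the brightness limit in Il10. By size, the mean of both states was the 80th lowest of 10728 genes. Without resting WT replicate 2, the difference at rest was -0.72 and over both states -0.66. Lower DKO arrays without overlap were found for 13.5% of genes tested in activated and 13.4% in resting cells, and 0.0186% of genes, 2 in each comparison, were called lower. Unadjusted p was below 0.05 for 638 genes in activated cells, 707 in resting cells and 1157 over both states.

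Tnf and Il1rn were also lower in DKO in all 4 same-numbered pairs, a pattern of 13.3% of genes tested. Over both states the DKO minus WT difference of Tnf was -0.40 ± 0.45 (adjusted p = 0.823, or 0.0615 with the replicate block) and that of Il1rn was -0.19 ± 0.19 (adjusted p = 0.795). Neither passed, and the arrays of the genotypes overlapped in both states. Without resting WT replicate 2 the difference over both states was -0.67 for Tnf and -0.28 for Il1rn, and at rest -1.07 for Tnf and -0.36 for Il1rn. Il6 differed by 0.07 ± 0.16 in activated cells, where the arrays overlapped. At rest it differed by -0.45 ± 0.16, without overlap (adjusted p = 0.68), and by -0.53 without resting WT replicate 2. All resting cDC2 arrays were under the brightness limit in Il6. Il1b differed by 0.09 ± 0.31 in activated and -0.24 ± 0.31 in resting cells, and Il1a by -0.10 ± 0.40 and -0.07 ± 0.40, so that each lay within its error. The resting difference without resting WT replicate 2 was -0.56 for Il1b and -0.33 for Il1a. By group mean, Il6, Il1b and Lif were higher in DKO after activation and lower at rest. In Il6 and Il1b, however, the activated arrays of the genotypes overlapped, and activated replicate 2 was lower in DKO (-0.07 and -0.0085). In Lif the arrays did not overlap in either state. Its DKO arrays lay above both WT arrays after activation, as did those of 16.4% of genes tested (0.45 ± 0.09, adjusted p = 0.492). At rest they lay below both (-0.40 ± 0.09, adjusted p = 0.575, and -0.45 without resting WT replicate 2).

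**Figure D3:**
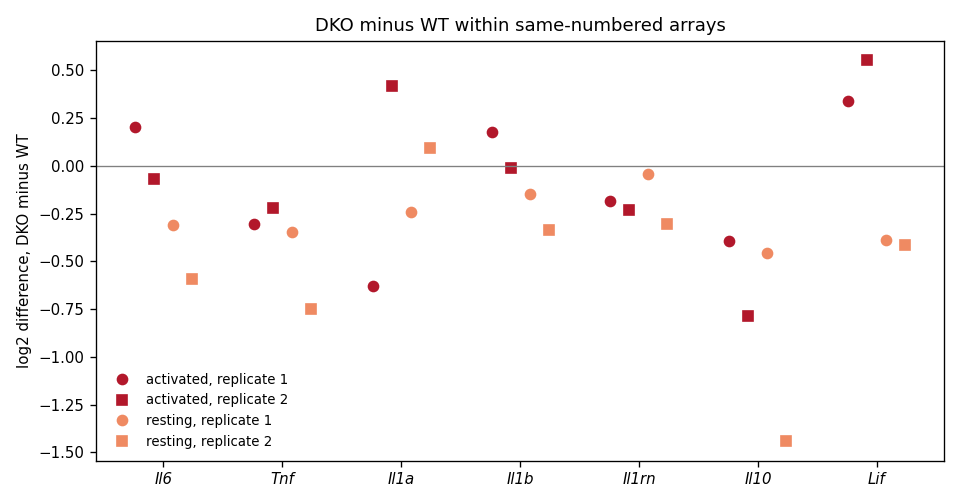
DKO minus WT log2 difference of each cytokine gene between arrays of the same replicate number, with activated arrays in dark red and resting arrays in orange, circles for replicate 1 and squares for replicate 2. All 4 points lie below 0 for Tnf, Il1rn and Il10, with the lowest at -1.44 for resting Il10, and Lif lies above 0 when activated and below 0 at rest.

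The resting WT cDC1 array was set against the resting WT cDC2 arrays, on the assumption that a lone array varies as the cDC2 arrays do. Il1rn was far lower on the cDC1 array: it was at 7.65 there, against 11.07 and 10.70 in WT cDC2, and every cDC2 array of either genotype was above 10.3. The difference was -3.24 ± 0.32 (9.42-fold lower in cDC1, adjusted p = 0.00305), the 21st lowest of 10728 genes, and -3.42 without resting WT replicate 2 (adjusted p = 0.0124). In this comparison 6.56% of genes tested were called lower in cDC1 and 7.08% higher. The other members did not pass. Il10 was at 5.53 in cDC1, under the brightness limit and under both WT cDC2 arrays (-1.07 ± 0.39, adjusted p = 0.126). Tnf was at 8.10, also under both arrays (-0.74 ± 0.78, adjusted p = 0.601). Il1b was at 8.62 (-0.37 ± 0.38), Il1a at 5.02 (0.28 ± 0.49), Il6 at 6.11 (0.41 ± 0.20, adjusted p = 0.222) and Lif at 5.33 (0.05 ± 0.11). Without resting WT replicate 2 the differences were -0.84 for Il10, -1.26 for Tnf, -0.69 for Il1b, 0.03 for Il1a and 0.34 for Il6, and Lif was level. A single array outside the range of 2 others is frequent: 40% of genes tested were lower and 38.1% higher on the cDC1 array without overlap.

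Ordered by mean level, Tnf, Il1rn and Il10 shared 1 order, with activated WT cDC2 highest, then activated DKO, resting WT and resting DKO cDC2, and cDC1 lowest. Il6 and Lif shared another, with activated DKO cDC2 highest, then activated WT cDC2, cDC1, resting WT and resting DKO cDC2. Of the neighbours in these orders, a difference passed for activated WT cDC2 over cDC1 in Il6 (3.40, adjusted p = 0.000315) and for resting DKO cDC2 over cDC1 in Il1rn (3.06, adjusted p = 0.00359). For Tnf, the gap between activated DKO and resting WT cDC2 was 2.47 with an adjusted p of 0.0653. No other neighbours differed beyond the threshold in any of the 7 genes.

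The 2 arrays of a group differed in a repeated way. Tnf, Il1a, Il1b and Il1rn were higher on replicate 1 in all 4 cDC2 groups, as were 19% of genes tested, while 23.9% were higher on replicate 2 in all 4. For Il1b the gap was 0.24 in activated and 0.83 in resting DKO cDC2, against 0.05 in activated and 0.64 in resting WT cDC2, so that at rest it was about as wide as the response. The summed intensity of 6 plasmacytoid dendritic cell markers moved the other way, being 5757 on replicate 2 and 3611 on replicate 1 in activated DKO, 3403 and 1395 in resting DKO, 6777 and 3664 in activated WT and 6351 and 2076 in resting WT cDC2. Of its members, Bst2, which interferon also induces, was at 9.40 to 12.36 and higher on replicate 2 in all 4 groups, and Tcf4 was at 10.24 to 10.61 on the activated and 8.06 to 9.12 on the resting arrays. Ccr9, at 5.68 to 9.06, went against the sum and was higher on replicate 1 in all 4 groups, and the defining marker Siglech was at 5.66 to 5.97 on every array, with Ly6d at 5.42 to 5.69 and Cox6a2 at 6.15 to 6.37. Sums of 6 monocyte markers were 373.8 to 724.3 and of 8 macrophage markers 734.8 to 1258 on the cDC2 arrays. Their part in the values of the cytokine genes was not tested.

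Across the 8 cDC2 arrays, which share genotype and treatment groups, the genes most like each member by Pearson correlation of log2 values were as follows. Il6 was followed most closely by Nfkbiz (r = 0.997), Pias2, Gprc5c and Rmdn3 (each 0.995) and Ppp1r15b (0.994). Tnf was followed by Ptger4 (0.996), Sgms2 (0.993), Ktn1 (0.992), Map3k5 (0.991) and Lhx2 (0.990). For Il10 the nearest were Fcer1g (0.992), Dusp28 (0.975), Calcrl (0.970), N4bp1 (0.967) and Kat6a (0.966). Il1rn was nearest to Rin2 (0.998), Il1b to Camsap2 (0.979), Il1a to Rnf115 (0.974) and Lif to Tmem165 (0.960). Among the members themselves, r was highest between Tnf and Il1a (0.951) and between Il6 and Tnf (0.941), and lowest between Il1a and Il10 (0.530). Such values describe 8 arrays with 2 states each and are high for many genes.

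The wider circuit of these cytokines was read from 6 lists chosen by role, with earlier results of these data known. The shares below therefore describe the lists and do not test them. Of their 85 genes tested, 23.5% rose and 12.9% fell in the DKO response, beside 5.82% and 7.9% of all genes tested, and 17.6% rose and 8.24% fell in the WT response, beside 3.97% and 6.57%. With the replicate block 43.5% rose and 21.2% fell in DKO, beside 13% and 25% of all genes tested, and 43.5% rose and 18.8% fell in WT cDC2, beside 11.4% and 23.9%. Without resting WT replicate 2, when 2.96% of all genes were called higher and 2.16% lower in the WT response, 14 of the 22 list genes called there kept the call and all 22 kept their sign. The calls lost were those of Lta, Tnfrsf1a, Il6ra, Adam17, Tia1, Crem, Spi1 and Dusp2. Lta and Cebpd were above the brightness limit in both activated groups alone, Osm in activated DKO alone and Il33 in activated WT cDC2 alone. As for Il1a, a rise in those groups was built into their entry, though not its size. Of 8 related ligands tested, 4 rose and 1 fell in the DKO response (median 0.71) and 3 rose and 0 fell in the WT response (median 0.88), against medians of -0.09 and -0.07 over all genes tested. In the blocked fit 5 rose and 1 fell in each genotype. Lta, the lymphotoxin gene beside Tnf on chromosome 17, was at 7.12 and 7.09 in activated against 5.58 and 5.57 in resting DKO cDC2 (1.53 ± 0.21, adjusted p = 0.00901), and rose by 1.18 ± 0.21 in WT cDC2. Ltb, on the other side of Tnf, fell in DKO cDC2 (-1.49 ± 0.30, adjusted p = 0.0255), and its WT difference was -0.87 ± 0.30 (adjusted p = 0.113, or 0.00714 with the replicate block). Il27, the p28 chain of IL-27, rose in both (1.18 ± 0.13 in DKO, 1.36 ± 0.13 in WT). Clcf1, another gp130 ligand, rose in DKO (1.59 ± 0.39, adjusted p = 0.046), as did Osm, which lies beside Lif (0.81 ± 0.19, adjusted p = 0.0391). In WT cDC2, Clcf1 (1.32 ± 0.39) and Osm (0.58 ± 0.19) passed with the block alone (adjusted p = 0.00408 and 0.0227).

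Il33, the IL-1 family alarmin, was at 5.63 and 5.20 in activated DKO cDC2, against 4.89 and 4.73 in resting DKO cDC2, and at 6.36 and 6.17 in activated WT cDC2, against 4.84 and 4.91 in resting WT cDC2. The activated WT arrays lay above the activated DKO arrays. Activated WT cDC2 was the single group above the brightness limit. The WT response was 1.39 ± 0.16 (adjusted p = 0.00945) and the DKO response 0.61 ± 0.16 (adjusted p = 0.0581, or 0.0113 with the replicate block, where it passed), and the difference between the responses did not pass (-0.78 ± 0.23, adjusted p = 1).

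Of 8 receptor chains tested, 2 rose and 3 fell in DKO (median -0.10) and 2 rose and 2 fell in WT cDC2 (median -0.14). With the block 3 rose and 4 fell in DKO and 2 rose and 4 fell in WT cDC2. Il10ra, the chain that binds IL-10, rose by 2.31 ± 0.26 in DKO (adjusted p = 0.00528) and 1.87 ± 0.26 in WT cDC2 (adjusted p = 0.0135), and Tnfrsf1a, the main TNF receptor, by 1.32 ± 0.20 and 1.22 ± 0.20 in the same genotypes. The receptor of IL-6 went the other way: its signalling chain gp130, encoded by Il6st, fell in DKO (-1.99 ± 0.21, adjusted p = 0.00481) and in WT cDC2 (-1.68 ± 0.21, adjusted p = 0.0108), and so did its binding chain Il6ra (-0.78 ± 0.15 in DKO and -0.69 ± 0.15 in WT). Tnfrsf1b, the second TNF receptor, fell in DKO cDC2 (-0.63 ± 0.11, adjusted p = 0.0178) and, with the block alone, in WT cDC2 (-0.37, adjusted p = 0.0284).

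Among 12 genes of processing and release, 3 rose and 1 fell in DKO and 2 rose and 1 fell in WT cDC2, with a median of 0.62 in each. Casp4, the mouse sensor of LPS in the cytosol, rose by 2.48 ± 0.23 in DKO and 1.81 ± 0.23 in WT cDC2, and Il18bp, which neutralises IL-18, by 1.58 ± 0.16 and 1.20 ± 0.16. Casp1, which cleaves IL-1 beta, rose in DKO cDC2 (0.79 ± 0.20, adjusted p = 0.048) and, with the block alone, in WT cDC2 (0.68, adjusted p = 0.0339). Adam17, which sheds TNF from the cell surface, fell in both (-0.78 ± 0.18 in DKO and -0.80 ± 0.18 in WT). In the blocked fit 7 rose and 2 fell in each genotype.

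Of 13 regulators of mRNA stability, 2 rose and 2 fell in DKO and 1 rose and 2 fell in WT cDC2, with medians of -0.02 and -0.01. Zfp36l1, which promotes decay of mRNAs with AU-rich elements, fell in DKO (-1.86 ± 0.20, adjusted p = 0.00481) and in WT cDC2 (-1.71 ± 0.20, adjusted p = 0.00915), and Arid5a, which stabilises Il6 mRNA, rose by 1.45 ± 0.18 in DKO and 1.46 ± 0.18 in WT cDC2. Tia1, a translational silencer of Tnf mRNA, fell in both (-0.77 ± 0.13 in DKO and -0.65 ± 0.13 in WT), and N4bp1 rose in DKO cDC2 (0.70 ± 0.17, adjusted p = 0.0462) and, with the block alone, in WT cDC2 (0.43, adjusted p = 0.0397). With the block 3 rose and 3 fell in each genotype.

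Of 21 transcription regulators, 3 rose and 2 fell in DKO (median 0.45) and 3 rose and 1 fell in WT cDC2 (median 0.51). Nfkbiz, the nuclear IkappaB protein needed for Il6 induction in mouse macrophages, rose by 2.57 ± 0.17 in DKO (adjusted p = 0.0018) and 2.07 ± 0.17 in WT cDC2 (adjusted p = 0.00375). Irf1 rose by 2.14 ± 0.16 in DKO and 2.32 ± 0.16 in WT cDC2, and Crem by 1.45 ± 0.24 in each. Spi1, which encodes PU.1, fell in both (-0.93 ± 0.15 in DKO and -0.78 ± 0.15 in WT), and Fosl2, an AP-1 protein, fell in DKO cDC2 (-1.07 ± 0.22, adjusted p = 0.028) and, with the block alone, in WT cDC2 (-0.79, adjusted p = 0.00267). With the block 10 rose and 3 fell in DKO and 11 rose and 3 fell in WT cDC2.

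Of 23 signalling genes, 6 rose and 2 fell in DKO (median 0.15) and 4 rose and 1 fell in WT cDC2 (median 0.07). Socs3, the inhibitor of gp130 signalling, rose by 2.37 ± 0.25 in DKO (adjusted p = 0.00481) and 2.50 ± 0.25 in WT cDC2 (adjusted p = 0.0068), and Myd88 by 1.45 ± 0.24 in DKO and 1.29 ± 0.24 in WT cDC2. Dusp2, a MAP kinase phosphatase, rose by 1.34 ± 0.17 in DKO and 0.93 ± 0.17 in WT cDC2. Tnfaip3, the NF-kappaB inhibitor A20, rose by 0.94 ± 0.12 in each. Socs1, an inhibitor of JAK kinases, passed in DKO cDC2 (1.38 ± 0.33, adjusted p = 0.0445) and, with the block alone, in WT cDC2 (0.92, adjusted p = 0.0102), and Ifngr1, the binding chain of the IFN-gamma receptor, fell in both (-1.22 ± 0.15 in DKO and -1.04 ± 0.15 in WT). With the block 9 rose and 5 fell in DKO and 9 rose and 3 fell in WT cDC2.

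**Figure D4:**
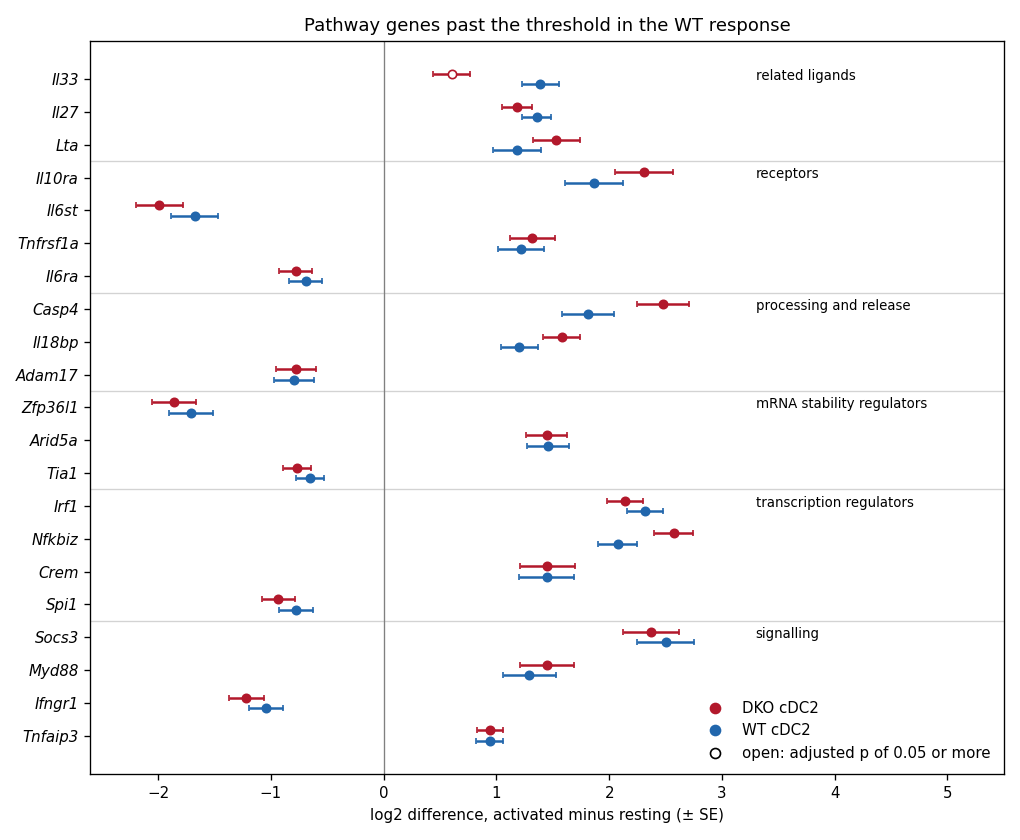
Log2 difference between activated and resting cDC2, with SE, for up to 4 genes of each list that passed the threshold in the WT response with the largest change, DKO above WT in each row. Il10ra, Casp4, Nfkbiz, Irf1 and Socs3 were at 1.81 or more in both genotypes, Il6st and Zfp36l1 were at -1.68 or less, and Il33, which passed in DKO with the replicate block alone, has the single open DKO point.

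None of the genes on these lists passed in a DKO against WT comparison or in the difference between the responses. With the replicate block, Atf3, a repressor of Il6 and Tnf in mouse macrophages, passed as lower in DKO in activated cells (-0.72, adjusted p = 0.0342), in resting cells (-0.70, adjusted p = 0.0257) and over both states (-0.71, adjusted p = 0.00483), while without the block its difference over both states was -0.71 ± 0.32 with an adjusted p of 0.506. In the same blocked fit over both states, Irak2 (-0.70, adjusted p = 0.0297), Il33 (-0.46, adjusted p = 0.038, above the brightness limit in activated WT cDC2 alone) and Tnfrsf1a (-0.42, adjusted p = 0.0309) were lower and Il1r2, the IL-1 decoy receptor, was higher (0.65, adjusted p = 0.0493). With the block 1.18% of the 85 list genes were called lower in activated and 1.18% in resting cells, beside 0.289% and 0.419% of all genes tested. Over both states 4.71% of the list genes were lower and 1.18% higher, beside 2.6% and 2.98% of all genes tested. The calls at rest and over both states use resting WT replicate 2, and the blocked fit was not repeated without it. None of the 7 cytokine genes was among the genes called.

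Between the cDC1 array and the resting WT cDC2 arrays, 11 of the 85 list genes tested (12.9%) were called lower and 2 (2.35%) higher, beside 6.56% and 7.08% of all genes tested. Of these 13, 7 kept the call without resting WT replicate 2, when 3.55% of all genes were called lower and 4.17% higher, and all 13 kept their sign. The calls lost were those of Rel, Ticam1, Il6ra, Tnfrsf1b, Il18bp and Casp1. Nfkbiz was at 6.88 in cDC1, against 8.14 and 8.04 in WT cDC2 (-1.22 ± 0.21, adjusted p = 0.0155). Also lower in cDC1 were Fosl2 (-1.38 ± 0.27), Rel (-0.72 ± 0.14), Rc3h1, which degrades Il6 and Tnf mRNA (-1.15 ± 0.12), Casp1 (-1.10 ± 0.24), Il18bp (-1.03 ± 0.20), Tnfrsf1b (-0.56 ± 0.13), Tnfaip3 (-1.05 ± 0.15), Jak2 (-1.03 ± 0.18) and Ticam2 (-0.85 ± 0.16). Ifngr1 (1.51 ± 0.19) and Il6ra (0.72 ± 0.18) were higher in cDC1. Of the lists, 1 receptor and 1 signalling gene were called higher, and 1 receptor, 2 processing genes, 1 stability regulator, 3 transcription regulators and 4 signalling genes lower, with 0 related ligands either way.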

How the data were processed

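RNA was labelled from very small amounts and hybridised to Affymetrix arrays, per the labels' protocols. Per the submitters' processing notes, the authors used RMA and Affymetrix Expression Console, with no version given. What they deposited is 1 linear intensity for each cluster and array, so log2 was taken first. Array medians were 53.4 to 55.6, and the number of arrays limits the precision.

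The table held 28853 clusters, of which 21789 carried 1 symbol and were used, the cluster of highest mean for each gene. Of 19938 genes, 10728 had a group mean above 61.3 (log2 5.94) and entered limma 3.58.1 under R 4.3.3 (lmFit, eBayes, 1 mean a group over 9 arrays, two-sided, Benjamini-Hochberg over the genes tested). Names were taken from the platform annotation and RefSeq.

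Replicate numbers come from the titles. Deviations of same-numbered arrays from their group means correlated at 0.454 to 0.695 across genes in all 6 pairs of cDC2 groups, so the numbers were treated as pairing. Values with the number as a block are given where they change a call in a comparison described for that gene.

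The genes named are all 7 cytokines, Batf and Batf3, up to 4 called genes of each list by size of change and the 5 nearest genes by correlation. Genes named from the blocked fit or for a lost call, and the plasmacytoid markers described singly, were chosen after their values were seen. The members and lists were chosen with earlier results of these data known. Alternatives were the filter, scaling, offset, variance prior, clusters, arrays used, block and leaving out each array. The fit was tested on simulated data in which arrays varied independently. That test does not cover the deviations that same-numbered arrays share here.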

Additional observations from a re-analysis of the deposited data

Results flagged for a closer look

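Lif was picked out because its genotype difference ran in opposite directions in the 2 states. On every activated array DKO was above WT, with 5.71 and 5.89 in DKO against 5.37 and 5.33 in WT cDC2, and on every resting array it was below, with 4.94 and 4.82 in DKO against 5.33 and 5.24 in WT cDC2. The DKO response minus the WT response was 0.8483 on the log2 scale (± 0.12 SE). It did not pass the threshold over all 19938 genes (limma, adjusted p = 1, or 0.999 with the replicate block). All of these values are below the median intensity of the table, 5.94 on the log2 scale. Activated WT replicate 2 and resting WT replicate 1 held the very same value, 5.32991.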

How the results depend on the processing

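Without a single array the Il6 responses kept their calls, at 4.12 to 4.55 in DKO and 3.74 to 3.89 in WT cDC2, as did Il1rn in cDC1, at -3.42 to -3.05. The Tnf response lost its call without the brightness filter (3.02 in DKO, adjusted p = 0.0541, and 2.74 in WT, adjusted p = 0.0783) and, in WT, after a repeat of quantile normalization (2.69, adjusted p = 0.0608). The cause was not tested. With the replicate block, calls were gained for Il1a (1.47 in DKO, 1.5 in WT), Il1rn (0.49 in DKO, 0.53 in WT), Il1b (0.80 in DKO) and Il10 (1.13 in DKO), and it changed no other call of the 7 genes. The block raised the genes past the threshold to 4080 in the DKO and 3791 in the WT response, against 1472 and 1131 without it, and to 61 in activated cells, 79 in resting cells and 599 over both states between genotypes. No paired analysis was possible for cDC1, whose title has no number. The cDC1 minus cDC2 difference of Lif, 0.05, became -0.0037 after the repeated quantile normalization, which also turned the WT response into 459 genes higher and 478 lower, against 426 and 705.

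Leaving out each cDC2 array in turn gave 217 to 1276 genes in the DKO response (217 without resting DKO replicate 2), 63 to 696 in the WT response (63 without activated WT replicate 2), 0 to 0 between genotypes in activated cells (421 to 732 at an unadjusted p below 0.05), 0 to 6 in resting cells, 2 to 4 over both states and 798 to 1155 in cDC1. Responses ranged over 2.29 to 3.74 for Tnf, 1.36 to 1.58 for Il1a, 0.38 to 1.21 for Il1b, 0.17 to 0.81 for Il1rn, 0.86 to 1.40 for Il10 and 0.83 to 1.00 for Lif in DKO, and over 2.21 to 3.26 for Tnf, 0.86 to 2.13 for Il1a, 0.15 to 0.79 for Il1b, 0.34 to 0.71 for Il1rn, 0.39 to 1.15 for Il10 and 0.02 to 0.11 for Lif in WT. In cDC1 the differences ranged over -1.26 to -0.21 for Tnf, -0.69 to -0.06 for Il1b, 0.03 to 0.54 for Il1a, 0.34 to 0.49 for Il6 and -1.30 to -0.84 for Il10. The difference between the responses changed sign for Tnf (-0.44 to 1.01), Il1a (-0.67 to 0.60), Il1b (-0.0865 to 0.74), Il1rn (-0.36 to 0.29) and Il10 (-0.0224 to 0.74). DKO minus WT changed sign in activated cells for Il6 (-0.0052 to 0.14), Tnf (-0.77 to 0.25), Il1a (-0.74 to 0.53) and Il1b (-0.0323 to 0.20), in resting cells for Tnf (-1.27 to 0.18), Il1a (-0.33 to 0.19), Il1b (-0.66 to 0.17) and Il1rn (-0.49 to 0.15), and over both states for Il1a (-0.41 to 0.23), Il1b (-0.28 to 0.13) and Lif (-0.0188 to 0.07, with -0.0061 between). Il10 stayed lower in DKO throughout, at -0.97 to -0.21 in activated and -1.22 to -0.68 in resting cells. Where a group was left with 1 array, it was assumed to vary like the others.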
